A study of Oryza sativa Japonica Group with 18 samples.

Results

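Shoots of 2 rice knockouts, pho2 and gi, were compared directly with each other on Affymetrix rice arrays. The comparison took the 3 arrays titled as pho2 knockout shoots and the 3 titled as gi knockout shoots, 6 of the 18 arrays of the series. The 3 wild-type (WT) shoot arrays entered the estimate of the spread but not the contrast, and the 9 root arrays served to ask whether a difference between the mutants was the same in both organs. All plants were of Oryza sativa Japonica in the Nipponbare background and carried no other allele or treatment that the labels name. The pho2 plants lacked OsPHO2, the gi plants lacked OsGIGANTEA, and WT plants carried neither knockout. Every plant was 21 days old, after 2 days of germination in water and 19 days in a hydroponic medium with sufficient phosphate (Pi), under a 12 h photoperiod. The labels name 1 genotype per mutant and do not say how the alleles were made, how many lines were used or at which hour shoots were taken. Nothing in them tells if the 3 arrays of a group stand for plants or cultures grown apart, and p-values then cover the spread of these samples alone, which may be technical.

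PHO2, an enzyme that conjugates ubiquitin, limits Pi uptake and Pi loading into the xylem, so that plants without it carry too much Pi in their leaves and develop dying leaf tips. GIGANTEA (GI) belongs to the circadian clock and links the daily rhythm to the photoperiodic control of flowering. The series title joins both genes in flowering time and Pi balance. Changes that both mutants have in common against WT drop out of a direct comparison, which leaves the transcripts on which they differ.

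The tissue labels held on the summed signal of marker genes, though not on every member. Photosynthesis transcripts summed to between 149499 and 183219 signal units on the pho2 shoot arrays and between 189314 and 230792 on the gi shoot arrays, against at most 18665 on any root array. The 13 root marker genes summed to between 3579 and 6106 on the pho2 shoot arrays and between 2735 and 3290.2 on the gi shoot arrays, against 48122 to 60442 on the root arrays. The silicon efflux transporter Lsi2, a root marker, read 2.75 to 11.2 on the pho2 and 1.22 to 26.5 on the gi shoot arrays, and at least 6747 on the root arrays of both mutants. Other members went against their list. The root marker NAAT1 averaged 2386 in WT shoots and 1278 in WT roots. PPDK2, of the photosynthesis list, averaged 110 in pho2 and 78.4 in gi shoots, against 669 and 696 in their roots. The bacterial spike controls added at hybridisation were also lower on the pho2 than on the gi shoot arrays, with the bioC spike at 2207 to 2669 in pho2 and 2746 to 3282 in gi, and the brightest signal on an array was 40137 to 51151 in pho2 and 52795 to 65119 in gi. The part of these array differences in the results was not tested. Pairs of pho2 shoot arrays correlated at 0.966 to 0.976 and pairs of gi shoot arrays at 0.957 to 0.970 (Pearson's r across probe sets). Among the 3 pho2 shoot arrays, replicate 2 lay nearest to gi most often, in 65.7% of the 3383 probe sets called higher and in 57.4% of the 3194 called lower. The log2 ratio of 3' to 5' GAPDH control signal was 0.62 on this array and 3.64 and 4.08 on the other pho2 shoot arrays. It was 3.33 to 4.5 on the gi and -1.86 to 2.17 on the WT shoot arrays. The same ratio for cyclophilin was 1.23 on pho2 replicate 2 and 1.09 and 1.15 on the others. The part of RNA quality in the results was not tested.

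In all, 6577 of 34355 probe sets tested, 19.1%, differed between pho2 and gi shoots at a limma adjusted p under 0.05, 3383 of them (9.85%) higher and 3194 (9.3%) lower in pho2. The calls counted 4370 without pho2 replicate 1, and the higher ones were 51.4% of the calls as given and 43.0% after each array was centred on its median. Large differences lay more on the higher side, with 1042 called probe sets at least 2-fold higher in pho2 and 642 at least 2-fold lower, together 4.9% of those tested, and with 285 and 89 at least 4-fold. Against WT, 28.8% of probe sets were called in pho2, 14.6% higher and 14.3% lower, and 17.7% were called in gi, 9.07% higher and 8.58% lower. Differences are given throughout as pho2 minus gi on a log2 scale of the deposited signal plus 16, which understates the change of dim transcripts. Among the 2183 genes that carry a name and were tested by their brightest probe set, 713 (32.7%) were called, 361 higher (16.5%) and 352 lower (16.1%). These shares are the background for the counts of members below. The samples are whole shoots, so fewer cells of a type and less RNA per cell cannot be told apart.

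GI had the largest difference between the mutants of the 34355 probe sets tested, and 1 other probe set had a smaller p. The GI probe set read 6835, 8088 and 7142 signal units on the pho2 arrays and 44.6, 5.43 and 14.6 on those of gi, with WT at 11521, 9868 and 10889 (log2 difference 7.75, SE 0.271, limma adjusted p = 3.96e-08). The gi labels therefore held on the targeted gene. For the pho2 labels there is no such check, since the PHO2 transcript was not analysed here.

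Of the 7 clock genes on the arrays, GI among them, 3 were called higher in pho2 than in gi, 3 lower, and PRR73 was not called. LHY, a morning-phased MYB factor of the clock core, read 8372, 8997 and 8184 in pho2 and 5961, 5625 and 5961 in gi (log2 difference 0.54, SE 0.0685, limma adjusted p = 0.000245). WT shoots were above both mutants, at 12281, 12423 and 11616, so LHY was lower than in WT in each of them, by less in pho2 (-0.51, limma adjusted p = 0.000174) than in gi (-1.05, limma adjusted p = 2.14e-06). PRR95, a pseudo-response regulator that represses clock genes by day, ran the other way. It read 11204, 12893 and 12750 in pho2 and 25412, 24796 and 23683 in gi, with WT between them at 17896, 15934 and 16604 (pho2 minus gi -1.01, SE 0.0789, limma adjusted p = 8.61e-06).

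PRR1, the rice relative of the evening regulator TOC1, read 1222, 991 and 1186 in pho2 and 1974, 1848 and 1839 in gi, and WT lay below both at 682, 748 and 681 (pho2 minus gi -0.73, limma adjusted p = 0.000349). PCL1, a GARP factor related to LUX of Arabidopsis, read 680, 347 and 763 in pho2 and 114, 77.2 and 129 in gi (2.27, SE 0.465, limma adjusted p = 0.0051). In WT shoots PCL1 was dim, at 6.1, 77.7 and 48.1. PRR37 differed by -0.31 (limma adjusted p = 0.0192) and PRR73 by -0.18 (limma adjusted p = 0.211), with the PRR73 arrays of the mutants overlapping. The groups of arrays did not overlap for the 6 called genes, as for 6417 of the 6577 called probe sets and 33.6% of all probe sets tested. With no hour of harvest in the labels, a difference in hour between the groups cannot be told apart from a difference in the clock.

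**Figure D1:**
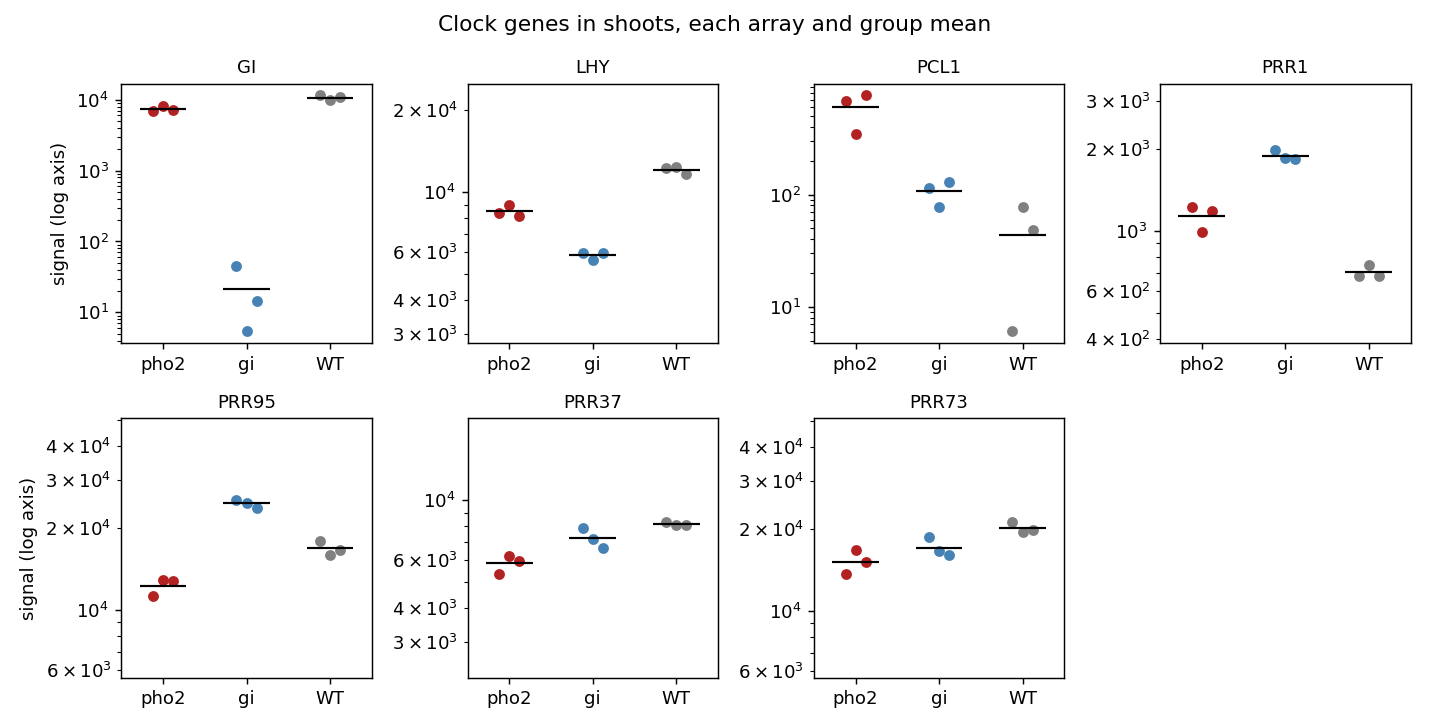
Signal (log axis, arbitrary units) of 7 clock genes on the 3 pho2, 3 gi and 3 WT shoot arrays, each point an array and each bar a group mean. GI is near the floor on the gi arrays (5.43 to 44.6), LHY is lowest in gi, and PRR1 and PRR95 are highest in gi, with pho2 between gi and WT for PRR1 and lowest for PRR95.

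Flowering genes were on the lower side in pho2. Of 21 tested, 7 were called lower (MADS1, MADS18, MADS50, Hd18, Hd16, PRR37 and MADS22) and Ehd4 was called higher, by 0.32. Of named genes in general 16.1% were called lower. MADS50, the rice relative of the flowering promoter SOC1, read 545, 727 and 562 in pho2 and 1165, 971 and 955 in gi (-0.74, SE 0.125, limma adjusted p = 0.00156), and WT, at 1284, 1207 and 1131, was not called apart from gi (gi minus WT -0.23, limma adjusted p = 0.252). MADS18, a meristem-identity factor of the AP1 group, read 188, 197 and 142 in pho2 and 362, 428 and 295 in gi (-0.97, limma adjusted p = 0.00256). MADS1, a floral organ identity gene, read 38, 42.5 and 29.7 in pho2 and 204, 174 and 150 in gi, while WT read 44.2, 7.85 and 34.7 (-1.86, SE 0.376, limma adjusted p = 0.00464), so here gi was the mutant that stood apart. Hd3a, the rice florigen, was dim, at 67.9, 26.9 and 40.5 in pho2 and 99.9, 57.1 and 61.7 in gi, and was not called (-0.56, limma adjusted p = 0.399). The count of flowering genes called lower was 4 without gi replicate 1, without pho2 replicate 1 or without pho2 replicate 3, and the call of Ehd4 was lost without 7 of the 9 single shoot arrays.

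Lists of Pi uptake and signalling gave 2 calls at most in shoots, and were too short to set their shares apart from those of named genes. Of 5 transporters of the PHT1 family that were tested, of 9 on the array, Pht1;4 was called lower and 4 were not called, where 16.1% of named genes were called lower. Pht1;4 read 329, 459 and 361 in pho2 and 499, 539 and 693 in gi (-0.57, SE 0.155, limma adjusted p = 0.0226), and the call ended without pho2 replicate 1 (0.0912), without pho2 replicate 3 (0.0787) and without gi replicate 3 (0.073), all limma adjusted p. Pht1;8 read 2085, 1461 and 1642 in pho2 and 784, 912 and 1482 in gi, a pair of ranges that overlap by the gi array at 1482 (0.74, SE 0.295, limma adjusted p = 0.108). Pht1;2, strongly expressed in roots, stayed dim in shoots, at 93.1, 39.2 and 51.1 in pho2 and 56.3, 45.8 and 57.6 in gi.

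Among 5 genes with an SPX domain, which senses inositol pyrophosphates, only SPX2 was called. SPX2 restrains the Pi starvation regulator PHR2, and it read 727, 731 and 888 in pho2 and 1203, 1097 and 1101 in gi (-0.53, SE 0.0982, limma adjusted p = 0.00275). The WT arrays, at 1160, 1179 and 1169, were level with gi. PHR2 itself read 1694, 1816 and 2016 in pho2 and 2203, 2463 and 2484 in gi (-0.37, SE 0.0864, limma adjusted p = 0.0105), but its second probe set was not called (-0.10, limma adjusted p = 0.653), and PHR2 was the 1 called gene of 8 on the Pi signalling list. Of the 11 genes listed for the Pi starvation response, 2 were called lower, the SPX2 and Pht1;4 already given, and 0 higher. Among named genes 16.1% were called lower and 16.5% higher. Leaving out WT replicate 1 or gi replicate 3 brought 1 PHT1 gene to a call on the higher side, and leaving out gi replicate 2 or pho2 replicate 2 did so for 1 SPX gene. Of 5 glycerolipid genes, which replace phospholipids when Pi is short, 0 were called. The galactolipid synthase MGD1 differed by -0.11 (limma adjusted p = 0.374) and the phospholipase PLD1 by -0.09 (limma adjusted p = 0.412).

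Named genes were ranked by their difference where they were called and their pho2 and gi arrays did not overlap. The 12 highest of these were GI, LEA19, STLP3, Cht2, BURP16, RAB21, ELA3, CAD6, JAMYB, CLPD1, NAAT1 and RAB16B. In 8 of them the WT mean lay below both mutants. For each of these 8, gi was not called against WT (limma adjusted p = 0.0592 for CAD6 to 0.984 for JAMYB). Each was called higher in pho2 than in WT, by 3.0 for JAMYB to 6.47 for LEA19. In 9 of the 12, pho2 replicate 2 had the lowest signal of the 3 pho2 arrays. LEA19, a late embryogenesis abundant protein that protects dry cells, read 3297, 489 and 2594 in pho2 and 9.55, 45.3 and 18.4 in gi (5.44, SE 0.585, limma adjusted p = 8.26e-05). WT read 1.64, 2.84 and 3.04. All 3 pho2 arrays were far above every gi and WT array, and they differed among themselves, replicate 2 being the lowest.

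Of 7 LEA and dehydrin genes tested, 5 were called higher in pho2 and 0 lower, where 16.5% of named genes were called higher, and the list's median was 1.89 against -0.01 for all named genes. RAB21, a dehydrin induced by abscisic acid (ABA) and drought, read 1330.3, 316 and 1088 in pho2 and 9.96, 104 and 112 in gi, with WT at 3.38, 4.64 and 7.75. It differed by 3.42 (SE 0.613, limma adjusted p = 0.00229), while its second probe set gave 2.15 and was not called (limma adjusted p = 0.0798). RAB16B, another dehydrin, read 407, 70.8 and 241 in pho2 and 3.18, 66.3 and 7.35 in gi, so that the groups were separated by the narrow gap between pho2 replicate 2 and gi replicate 2. RAB16B was called (2.67, limma adjusted p = 0.0125) but not without pho2 replicate 1 (2.17, limma adjusted p = 0.0742) or without pho2 replicate 3 (2.53, limma adjusted p = 0.0568). Dhn1 read 5922, 1670 and 4109 in pho2 and 1058, 1440 and 1190 in gi (1.48, limma adjusted p = 0.00831), and rab25 was the remaining called member (1.89, limma adjusted p = 0.0111). RAB16C (-0.32) and EM (0.44) were not called. Without pho2 replicate 1 the count of called members was 3.

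CLPD1, a plastid Clp chaperone, read 7727, 2162 and 6351 in pho2 and 503, 432 and 1089.9 in gi, with WT at 683, 642 and 717 (2.90, SE 0.411, limma adjusted p = 0.000523). Of 10 genes of chlorophyll synthesis and breakdown, the breakdown enzyme RCCR1 was called higher and 5 genes of synthesis lower. Among named genes 16.5% were called higher and 16.1% lower. RCCR1 read 3683, 2097 and 2751 in pho2 and 1158, 1151 and 1730 in gi, and both mutants were above WT, at 612, 599 and 650 (1.06, SE 0.191, limma adjusted p = 0.00236). SGR, the stay-green protein that starts chlorophyll breakdown, had overlapping arrays, at 2956, 803 and 1631 in pho2 and 539, 842 and 915 in gi (1.06, limma adjusted p = 0.0675). PORA, a protochlorophyllide oxidoreductase, read 491, 924 and 819 in pho2 and 2075, 2033 and 1370 in gi (-1.30, SE 0.216, limma adjusted p = 0.00144), and CHLG, chlorophyll synthase, read 1432, 1628 and 1703 in pho2 and 2471, 2653 and 2353 in gi (-0.65, limma adjusted p = 0.00117). Without pho2 replicate 2 there were 2 called higher. The other called members were PORB, CHLH and CHLD, at -0.68, -0.49 and -0.41. For PORA and CHLG it was gi that differed from WT (0.83 and 0.73, limma adjusted p = 0.019 and 0.000527), while pho2 was not called against WT (-0.47 and 0.08).

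Photosynthesis transcripts themselves separated little. Of 8 tested, rca, rubisco activase, was called lower (-0.38, SE 0.0963, limma adjusted p = 0.016) and 7 were not called, among them RBCS (-0.29) and CAB2R (-0.30). The rca call was lost without gi replicate 1 (limma adjusted p = 0.061), and 2 genes were called lower without gi replicate 3 or without pho2 replicate 2. After quantile normalization rca differed by -0.05 (limma adjusted p = 0.502), and the median of the 8 genes was 0.05 in place of -0.24. The brightest signal of each pho2 array was lower than that of any gi array, as given above, and its part in the rca difference was not tested.

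ABA genes were mixed. Of 34 tested, 4 were called higher and 9 lower, where 16.5% of named genes were called higher and 16.1% lower. ABA8OX2, an ABA 8'-hydroxylase that inactivates the hormone, read 830, 937 and 937 in pho2 and 2586, 2838 and 2710 in gi, with WT between them at 1376, 1422 and 1490 (-1.57, SE 0.0833, limma adjusted p = 7.34e-07). Each mutant differed from WT in its own direction, pho2 by -0.66 and gi by 0.92. SAPK1, a kinase of the SnRK2 family, read 2221, 2348 and 2315 in pho2 and 1401, 1381 and 1319 in gi (0.74, limma adjusted p = 0.000213). The stress-induced NAC factor SNAC2 read 7189, 5615 and 6892 in pho2 and 3591, 3721 and 3638 in gi (0.84, SE 0.09, limma adjusted p = 8.26e-05), with a dim second probe set at -0.36 that was not called (limma adjusted p = 0.684). Among the members called lower were the kinase SAPK9 (-1.04), the phosphatase PP2C30 (-1.05) and DREB1B, a regulator of the cold response (-1.19). The members called higher were 2 without pho2 replicate 1 or without pho2 replicate 3.

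**Figure D2:**
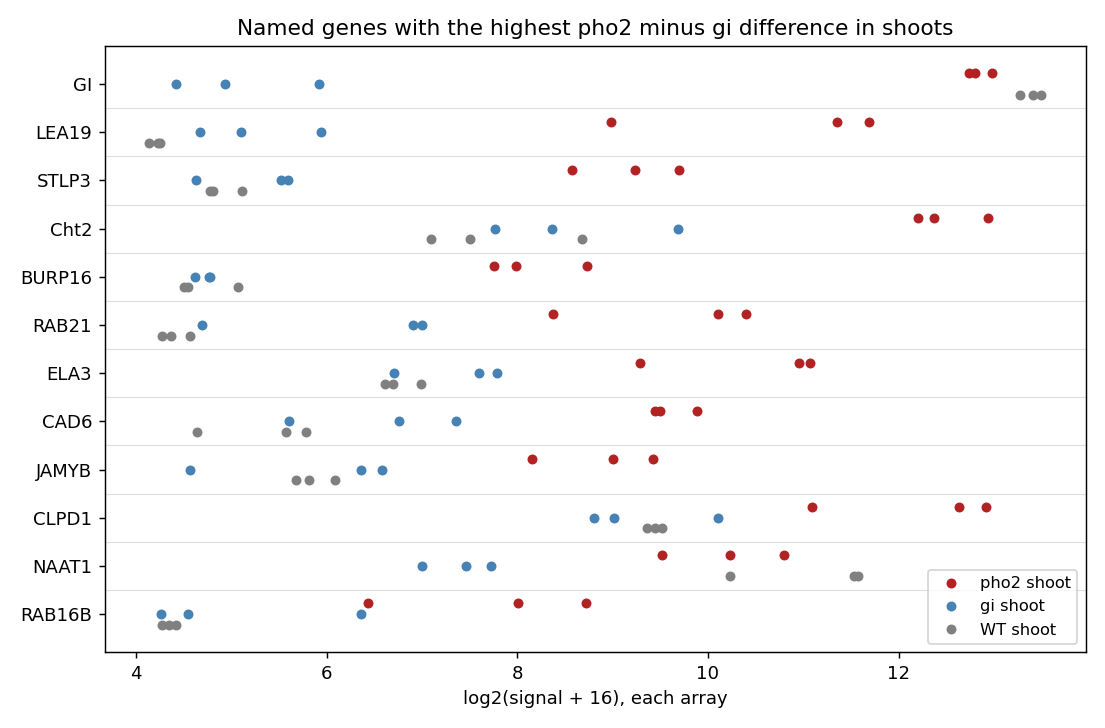
The 12 named genes with the highest pho2 minus gi difference among called genes without overlap, as log2(signal + 16) on each pho2, gi and WT shoot array. The choice of genes required all pho2 arrays to lie right of all gi arrays. The gap is least for RAB16B (70.8 in pho2 against 66.3 signal units in gi at the nearest), while WT lies above both mutants for GI and NAAT1.

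The defence list held members called in each direction. Chitinase Cht2, which degrades fungal cell walls, read 7850, 4687 and 5282 in pho2 and 202, 314 and 808 in gi, with WT at 165, 393 and 121 (3.90, SE 0.455, limma adjusted p = 0.000142). The chitinases CH16 and CH6 were also called higher, by 2.48 and 2.34. CH16 read 12421, 5054 and 7699 in pho2 and 1143, 1147 and 2071 in gi, above the 213, 595 and 520 of WT. PBZ1, a PR-10 protein induced by the resistance inducer probenazole, had the lowest difference of the named genes called without overlap of arrays. It read 295, 179 and 300 in pho2 and 2808, 2716 and 4078 in gi, and WT lay between at 1094, 1690 and 1178 (-3.56, SE 0.218, limma adjusted p = 1.71e-06). Against WT, PBZ1 was lower in pho2 (-2.29, limma adjusted p = 1.44e-05) and higher in gi (1.27, limma adjusted p = 0.00179). The chitinases Cht11, Cht4 and Cht6 were lower in pho2 than in gi as well, by -1.84, -1.47 and -0.92. In all, 4 of 28 genes of the defence list were called higher, a share near the 16.5% of named genes. The count lower was 7, where 16.1% of named genes were called lower. Without gi replicate 1 the higher count was 2.

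Diterpenoid phytoalexins are antimicrobial compounds of rice, made from geranylgeranyl diphosphate by copalyl diphosphate synthases, kaurene synthase-like enzymes and cytochromes P450. Of 9 such genes tested, 4 were called lower in pho2 and 0 higher, where 16.1% of named genes were called lower. CPS2, a copalyl diphosphate synthase, read 39.9, 39.9 and 4.65 in pho2 and 422, 560 and 323 in gi, with WT at 114, 59.4 and 54.2 (-3.46, SE 0.408, limma adjusted p = 0.00015). KS6, a kaurene synthase-like enzyme, read 13.5, 82.4 and 10.7 in pho2 and 399, 358 and 207 in gi, with WT at 72.7, 71.7 and 36.6 (-2.94, limma adjusted p = 0.00119). CYP701A8, a P450 related to kaurene oxidase, read 313, 109 and 89.8 in pho2 and 761, 781 and 429 in gi (-2.0, limma adjusted p = 0.00299), and CYP99A3 was called with -1.20. For CPS2, KS6 and CYP701A8 the WT arrays were well below the gi arrays, and gi was called higher than WT by 2.32, 2.14 and 2.06 while pho2 was not called against WT.

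CYP71Z6, another P450 of diterpenoid metabolism, was not on that list but was among the 12 lowest genes. It read 173, 141 and 155 in pho2 and 1269, 1152 and 767 in gi, with WT at 268, 229 and 178 (-2.62, SE 0.202, limma adjusted p = 7.48e-06). 4CLL7, a 4-coumarate-CoA ligase-like enzyme, read 114, 215 and 128 in pho2 and 1059, 949 and 684 in gi, with WT at 113, 131 and 120, below the pho2 mean (-2.46, SE 0.23, limma adjusted p = 2.97e-05). CRSH2, a calcium-activated synthase of the plastid alarmone ppGpp, read 2413, 4260 and 2935 in pho2 and 14472, 18663 and 13682 in gi, with WT at 3272, 4199 and 2714 (-2.31, SE 0.201, limma adjusted p = 1.67e-05). CRSH2 was called higher in gi than in WT by 2.2 (limma adjusted p = 2.47e-05) and not called in pho2 against WT (-0.10, limma adjusted p = 0.772). BBD1, a bifunctional nuclease of basal defence in plants, read 642, 466 and 674 in pho2 and 2622, 2542 and 3261 in gi (-2.22, limma adjusted p = 4.52e-06). Unlike CRSH2 it was above WT (186, 223 and 253) in each mutant. The villin VLN4, an actin-binding protein, was dim, at 3.78, 15.1 and 37.2 in pho2 and 148, 199 and 160 in gi (-2.52, limma adjusted p = 0.00184), and its second probe set was not called (-1.14, limma adjusted p = 0.0975).

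**Figure D3:**
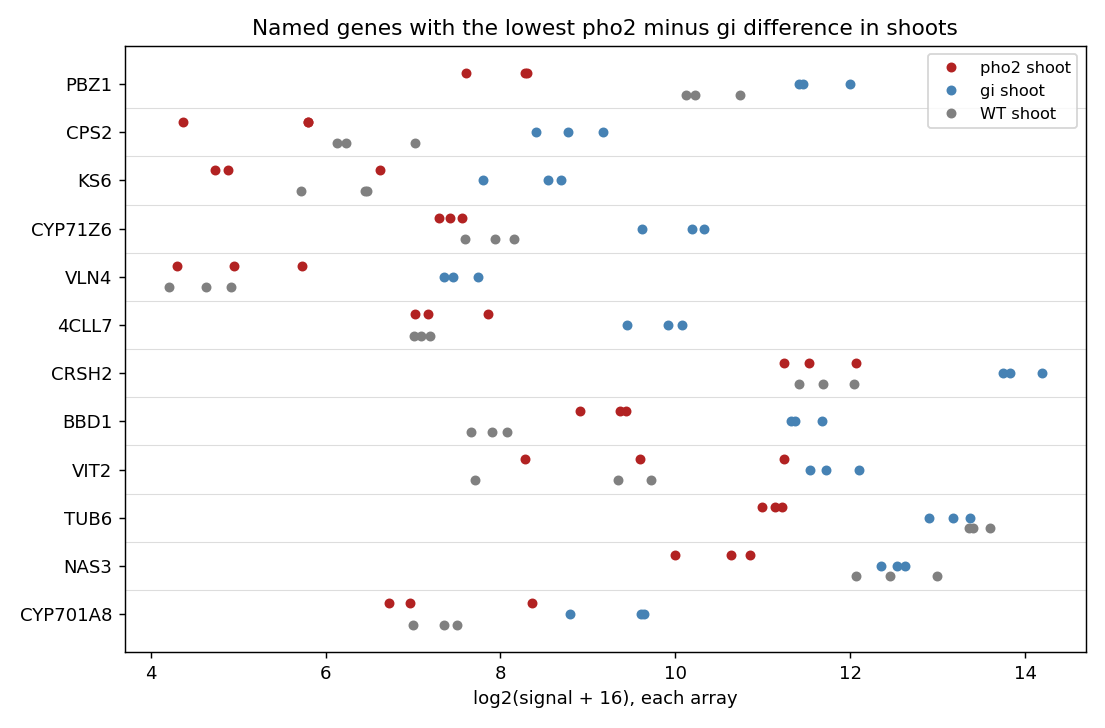
The 12 named genes with the lowest pho2 minus gi difference, as log2(signal + 16) on each pho2, gi and WT shoot array. They were chosen among called genes whose pho2 and gi arrays did not overlap. WT lies near the pho2 arrays for CYP71Z6, 4CLL7 and CRSH2, and near the gi arrays for TUB6 and NAS3, where pho2 is the mutant set apart.

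For 2 of the 12 lowest genes pho2 was called against WT and gi was not. TUB6, a beta-tubulin, read 2233, 2366 and 2023 in pho2 and 10527, 7602 and 9235 in gi, with WT at 10507, 10793 and 12340 (-2.03, SE 0.114, limma adjusted p = 1.11e-06). NAS3, a nicotianamine synthase that makes the metal chelator nicotianamine, read 1829.9, 1003 and 1571 in pho2 and 6286, 5890 and 5186 in gi, with WT at 5599, 8130 and 4268 (-2.01, SE 0.229, limma adjusted p = 0.000121). Against WT, pho2 was lower by 2.34 for TUB6 and by 2.01 for NAS3 on the log2 scale, and gi differed by -0.31 and -0.01 without a call.

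Iron and metal genes held members at both ends. NAAT1, nicotianamine aminotransferase, which acts on the product of NAS3 in the synthesis of the iron chelator deoxymugineic acid, read 1771, 718 and 1190 in pho2 and 196, 112 and 160 in gi, with WT at 1183, 2942 and 3033 (2.79, SE 0.366, limma adjusted p = 0.000306). The low group was gi, which lay below WT (gi minus WT -3.72, limma adjusted p = 4.38e-05), and pho2 was not called against WT (-0.92, limma adjusted p = 0.0817). Of 26 iron genes, 4 were called higher (NAAT1, NRAMP6, YSL12 and NRAMP2) and 5 lower (VIT2, NAS3, YSL9, VIT1 and YSL14). Together that was 34.6% of the list, near the 32.7% of named genes. VIT1, which loads iron into the vacuole, read 1174, 1476 and 1500 in pho2 and 3271, 3513 and 3046 in gi, with WT between at 2263, 2346 and 2345 (-1.24, SE 0.0994, limma adjusted p = 9.75e-06). VIT2, of the same family, varied widely in pho2, at 2407, 295 and 755, against 2948, 4386 and 3368 in gi (-2.08, SE 0.623, limma adjusted p = 0.0355), and without pho2 replicate 2 it was -1.37 and not called (limma adjusted p = 0.103). It also lost its call without pho2 replicate 3 and without each of the 3 gi arrays in turn (limma adjusted p = 0.0593 to 0.105). YSL9, of the yellow stripe-like transporters of chelated metal, read 499, 403 and 463 in pho2 and 1328, 1359 and 1402 in gi (-1.55, limma adjusted p = 6.7e-06). The iron genes called higher were 2 without gi replicate 1 or without pho2 replicate 1.

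Of 30 metal transport genes, 5 were called higher and 5 lower, near the background in each direction, and the higher count was 1 without pho2 replicate 1, 2 without pho2 replicate 3 and 3 without gi replicate 1, while the lower count was 3 without gi replicate 2. MTP4, named for the metal tolerance family, read 101, 126 and 115 in pho2 and 501, 432 and 467 in gi, with WT at 607, 507 and 507 (-1.89, SE 0.145, limma adjusted p = 7.3e-06). The copper transporter COPT1 read 4691, 4612 and 4935 in pho2 and 8760, 6989 and 7061 in gi (-0.67, limma adjusted p = 0.00039).

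Potassium transporters of the HAK family included members higher in pho2, 4 of 21 genes of the list, with 3 lower. Together that was 33.3% of the list, near the 32.7% of named genes. HAK1, a high-affinity potassium transporter, read 2950, 1328 and 2355 in pho2 and 295, 384 and 621 in gi, with WT between at 1019, 1051 and 1286 (2.3, SE 0.282, limma adjusted p = 0.000195). Each mutant left WT in its own direction, pho2 by 0.91 (limma adjusted p = 0.0299) and gi by -1.39 (limma adjusted p = 0.00489). HAK7 read 2769, 2380 and 2435 in pho2 and 1164, 1071 and 1568 in gi (1.0, limma adjusted p = 0.00028), and HAK2 differed by 0.72. The count lower was 1 without gi replicate 1 or 2, or without pho2 replicate 1 or 3. HAK1 and NAAT1 are also on the root marker list, of which 2 of 9 tested members were higher and 2 lower (Lsi1 and AMT1-2). Lsi1, the silicon influx channel, read 901, 874 and 892 in pho2 and 1971, 1561 and 1211 in gi (-0.79, limma adjusted p = 0.00206).

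Aquaporins, the water channels, were called lower in 7 of 23 and higher in 2, where 16.1% of named genes were called lower and 16.5% higher. The plasma membrane channel PIP1;3 read 10450, 5932 and 7854 in pho2 and 1355, 1335 and 3100 in gi, with WT at 2230, 2709 and 2999 (2.14, SE 0.284, limma adjusted p = 0.00034), and PIP2;4 differed by 2.11. TIP4;1, of the vacuolar membrane, read 5824, 6236 and 6432 in pho2 and 12049, 12392 and 12561 in gi, with WT between at 9506, 9095 and 8573 (-1.0, SE 0.07, limma adjusted p = 3.95e-06). A dim second probe set of TIP4;1 was not called (-0.78, limma adjusted p = 0.224). After quantile normalization the aquaporin counts were 2 lower and 4 higher, and without gi replicate 2 the lower count was 4.

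Nitrogen genes were called higher in 3 of 20 and lower in 5, a higher share near the background. GDH1, a glutamate dehydrogenase, read 1730, 1995 and 1456 in pho2 and 492, 660 and 508 in gi, with WT at 392, 352 and 345 (1.62, SE 0.142, limma adjusted p = 1.81e-05), and GDH2 differed by 1.19 (limma adjusted p = 0.000448). GLT2, named as a glutamate synthase, read 1336, 1572 and 1108 in pho2 and 4552, 4090 and 6220 in gi, with WT at 7582, 5865 and 6724 (-1.87, SE 0.16, limma adjusted p = 1.52e-05). The nitrate reductase NIA1 read 15333, 17928 and 16554 in pho2 and 30017, 27076 and 30324 in gi (-0.81, limma adjusted p = 5.02e-05). NIA1 was at -0.52 after quantile normalization, still called, and its dim second probe set gave 0.13 without a call. The other called members were ammonium transporters, with AMT1-1 higher and AMT2-1, AMT3-3 and AMT1-2 lower.

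Jasmonate genes were called higher in 6 of 31 and lower in 4, 32.3% in all and near the 32.7% of named genes. JAZ11, a repressor that is itself induced by jasmonate, read 4056, 960 and 2812 in pho2 and 231, 443 and 442 in gi, and both mutants were above WT at 43.2, 70.4 and 79.7 (2.59, SE 0.43, limma adjusted p = 0.00144). The other members called higher were OPR1 (2.42), CM-LOX1 (2.26), OPR10 (1.73), JAZ12 (1.06) and LOX5 (0.67), where OPR and LOX stand for oxophytodienoate reductases and lipoxygenases of oxylipin synthesis. CM-LOX1 had overlapping arrays, at 1849, 701 and 1298 in pho2 and 97.3, 154 and 805 in gi, with WT at 1554, 1859 and 2371. The members called lower were OPR7 (-0.91), JAZ1 (-0.51), aoc (-0.49) and the AOS gene with identifier 4334233 (-0.39). The allene oxide synthase AOS, the allene oxide cyclase aoc and the reductase OPR7 act in that order towards jasmonate, and aoc read 3482, 3734 and 3669 in pho2 and 5352, 5667 and 4415 in gi. JAMYB, a MYB factor induced by jasmonate and infection, read 671, 269 and 498 in pho2 and 7.72, 79.9 and 66.1 in gi (3.02, SE 0.484, limma adjusted p = 0.00115). The jasmonate genes called higher were 3 without gi replicate 1 or without pho2 replicate 1, and those called lower were 2 without gi replicate 2 or without pho2 replicate 3.

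Of 6 WRKY transcription factors, 3 were called higher and 0 lower, where 16.5% of named genes were called higher. WRKY76, a repressor of defence genes, read 3468, 2766 and 2848 in pho2 and 434, 510 and 744 in gi, above WT at 91.8, 151 and 119 (2.42, SE 0.2, limma adjusted p = 1.19e-05). WRKY62, of the same subgroup, read 742, 555 and 650 in pho2 and 148, 168 and 318 in gi (1.61, limma adjusted p = 0.00483), and WRKY24 differed by 1.48 (limma adjusted p = 0.000931). WRKY76 and WRKY62 were higher than WT in each mutant, by 4.49 and 3.39 in pho2 and by 2.07 and 1.77 in gi.

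Chaperones of the endoplasmic reticulum were called higher in pho2 in 8 of 16 genes and lower in 0, where 16.5% of named genes were called higher, with a median of 0.46. The protein disulfide isomerase PDIL1-1, which forms disulfide bonds in secretory proteins, read 13292, 11643 and 11892 in pho2 and 6396, 6662 and 8221 in gi, with WT at 7758, 8189 and 7761 (0.80, SE 0.0958, limma adjusted p = 0.00017). Calreticulin CRT1 read 12075, 10098 and 10666 in pho2 and 6022, 6071 and 7960 in gi (0.72, limma adjusted p = 0.000748). BIP1, the HSP70 of this compartment, read 9916, 8772 and 9854 in pho2 and 5080, 5905 and 6787 in gi (0.69, limma adjusted p = 0.00133). PDIL2-3, PDIL2-1, PDIL2-2, PDIL5-4 and BZIP60, a factor of the unfolded protein response, were the other called members, by 0.43 to 0.79. For BIP1, PDIL1-1 and CRT1 the gi shoots were not called against WT, while pho2 was higher by 0.57 to 0.68.

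Heat shock genes in general did not part the mutants so. Of 41 tested, 5 were called higher (HSFA2C, HSP16.9B, HSFC2A, HSFC1B and HSP24.1) and HSP18.6 lower, under the background in both directions. The higher count was 0 without pho2 replicate 1 or 3, 1 without gi replicate 1 or 2, 3 without WT replicate 3 and 9 without gi replicate 3, and the call of HSP18.6 was lost without any of 4 single arrays, WT replicates 2 and 3, gi replicate 3 and pho2 replicate 1. HSP24.1 read 832, 553 and 683 in pho2 and 342, 229 and 492 in gi (0.97, limma adjusted p = 0.0205), and was not called without pho2 replicate 1 or 3 or gi replicate 1 or 2 (limma adjusted p = 0.0563 to 0.0875). HSFC1B (0.99, limma adjusted p = 0.0229) lost its call without the same arrays (0.0705 to 0.0928). HSFC2A (1.11, limma adjusted p = 0.0339) lost it without any of the pho2 arrays or gi replicate 1 (0.0502 to 0.138), and was 0.72 without the last.

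Ribosomal protein genes were called higher in 6 of 24 and lower in 1, and all 6 differences were under 0.5 on the log2 scale. In all 29.2% of the list was called, near the 32.7% of named genes. RPS10-1 read 2344, 2232 and 2446 in pho2 and 1668, 1828 and 1565 in gi (0.47, SE 0.0809, limma adjusted p = 0.00176). RPL5 of the cytosolic ribosome read 9860, 9438 and 10012 in pho2 and 8044, 7661 and 7584 in gi (0.33, limma adjusted p = 0.007). A separate gene that carries the name rpl5 read 2278, 3646 and 3328 in pho2 and 4936, 5158 and 4168 in gi (-0.64, limma adjusted p = 0.00898). The count lower was 2 without pho2 replicate 2, and the count higher was 2 without pho2 replicate 3 and 17 after quantile normalization.

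Of 21 histone and replication genes, 7 were called lower and 0 higher, where 16.1% of named genes were called lower and 16.5% higher. Histone H2B.6 read 3936, 4114 and 4082 in pho2 and 5075, 5685 and 5889 in gi (-0.45, limma adjusted p = 0.00133), H2B.5 differed by -0.39, and RPA14, a subunit of the protein that coats single-stranded DNA, read 1224, 1134 and 1113 in pho2 and 1657, 1767 and 1874 in gi (-0.60, limma adjusted p = 0.00038). PCNA, the sliding clamp of replication, differed by -0.57. Without gi replicate 2 or pho2 replicate 2, 1 member was called higher. Of 34 cell cycle genes, 4 were called lower (KRP4, CDKF-3, CYCD3-1 and KRP1), a share under the background, and 2 without WT replicate 1, gi replicate 2 or pho2 replicate 1 or 3. KRP4, an inhibitor of cyclin-dependent kinases, read 825, 1029 and 844 in pho2 and 1501, 1777 and 1599 in gi, with WT at 817, 877 and 796 (-0.85, SE 0.107, limma adjusted p = 0.000244), although its dim second probe set was not called (-0.41, limma adjusted p = 0.499). KRP1 (-0.27, limma adjusted p = 0.0403) lost its call without any of 6 single arrays, WT replicate 1, the 3 gi replicates and pho2 replicates 1 and 3 (limma adjusted p = 0.06 to 0.132).

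Auxin genes were called lower in 13 of 52, and higher in 5, where 16.1% of named genes were called lower and 16.5% higher. ARF9 and arf1, auxin response factors, read 1186, 1376 and 1390 and 1128, 1632 and 1433 in pho2 and 2206, 2555 and 2692 and 2502, 2547 and 2916 in gi (-0.91 and -0.93, limma adjusted p = 7.95e-05 and 0.000247). IAA6, an auxin-responsive repressor, read 1351, 1390 and 1218 in pho2 and 604, 673 and 745 in gi, with WT between at 920, 893 and 912 (0.96, SE 0.1, limma adjusted p = 6.76e-05). GH3-8, which conjugates auxin to amino acids, had the highest difference of the list, 2.01 (limma adjusted p = 0.0189), and IAA31 the lowest, -1.48 (limma adjusted p = 0.000288). Gibberellin and cytokinin genes were called lower in 8 of 36 and higher in 4, the higher count being 1 without gi replicate 1 and 2 without pho2 replicate 1 or 2. In all 33.3% of this list was called, near the 32.7% of named genes. LOGL6, of a family that activates cytokinins, read 155, 145 and 127 in pho2 and 390, 336 and 381 in gi (-1.28, limma adjusted p = 0.000233). The cytokinin response regulators RR2 and RR24 differed by -0.94 and -0.77.

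Starch and sucrose genes were called higher in 9 of 44 and lower in 6, near the background. TPP9, a trehalose-6-phosphate phosphatase, read 469, 498 and 370 in pho2 and 164, 129 and 116 in gi, with WT at 133, 173 and 145 (1.60, SE 0.192, limma adjusted p = 0.000168). GBSS-I, granule-bound starch synthase, read 960, 635 and 814 in pho2 and 395, 351 and 379 in gi, with WT at 650, 715 and 657 (1.05, limma adjusted p = 0.000366). Of its 4 further probe sets, 2 were called in the same direction and 2 were not called. The sugar transporter SWEET1a read 1537, 2363 and 2053 in pho2 and 3759, 3644 and 3429 in gi (-0.88, limma adjusted p = 0.000616), and its dim second probe set gave 0.20 without a call.

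Few cell wall genes were called between the mutants. Of 54 tested, 3 were called higher and 2 lower in pho2 than in gi, 9.26% in all against 32.7% of named genes. In the comparisons with WT, which share the WT arrays, 20 of the 54 were called higher in pho2 and 14 in gi, beside 24.3% of named genes called higher in pho2 and 15.8% in gi. CESA4, a cellulose synthase of secondary walls, read 90.3, 188 and 213 in pho2 and 311, 371 and 232 in gi, against 23.1, 57.0 and 21.4 in WT, and the mutants were not called apart (-0.89, SE 0.35, limma adjusted p = 0.103). CESA7 and CESA9, which work in the same complex, differed by -0.55 and -0.35 (limma adjusted p = 0.436 and 0.627). CSLH1, a cellulose synthase-like enzyme, was called higher (0.61, limma adjusted p = 0.00122) and BC2, a kinesin-4, lower (-0.52, limma adjusted p = 0.00254). The cell wall genes called lower were 8 without gi replicate 3, and 1 without gi replicate 1 or pho2 replicate 1 or 3, while 5 were called higher without gi replicate 2.

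**Figure D4:**
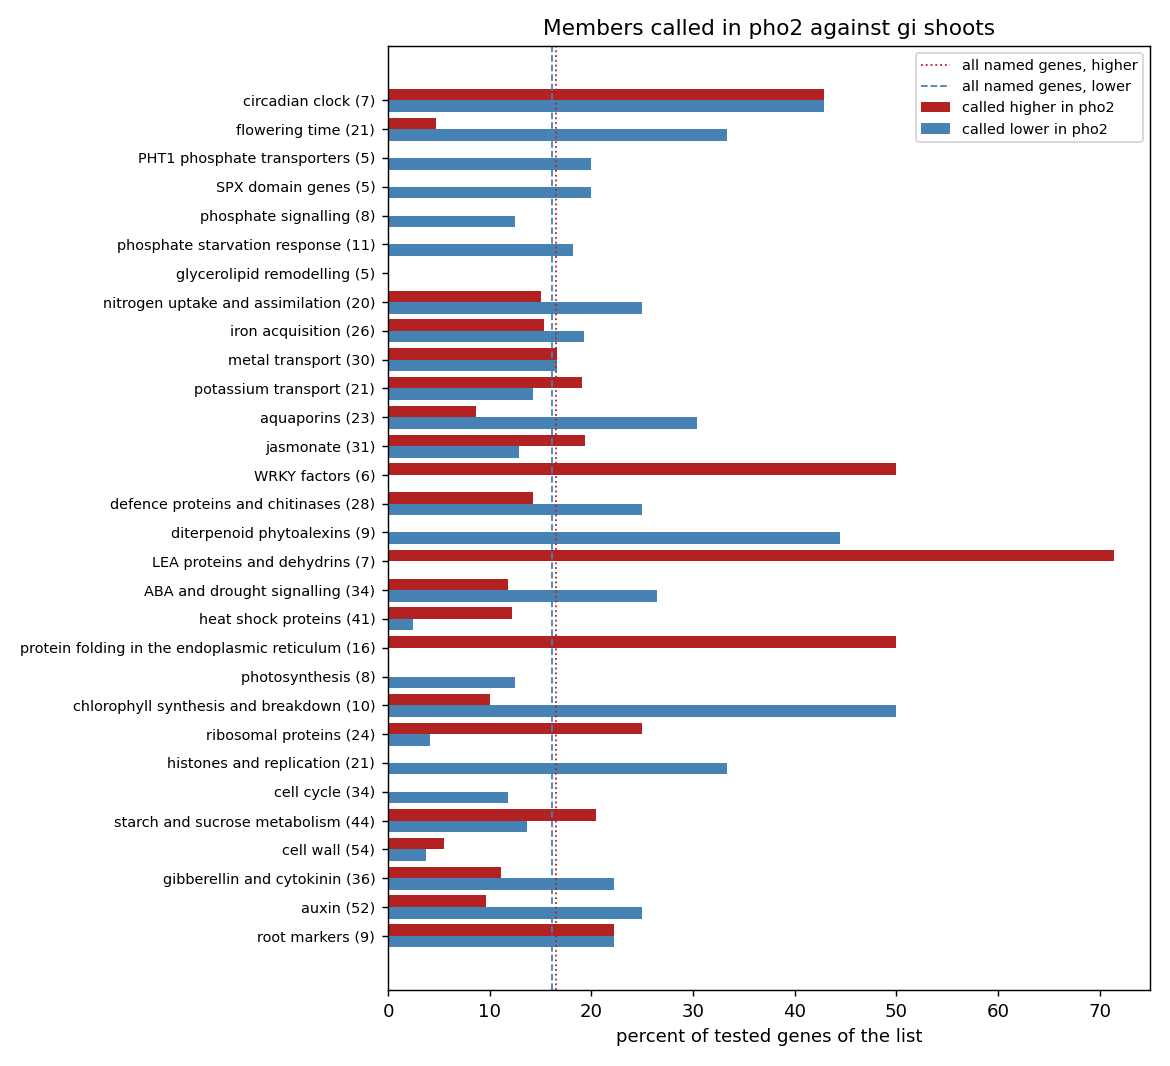
Percent of the tested genes of each list (number tested in parentheses) called higher or lower in pho2 than in gi shoots, beside the share of all named genes called higher (16.5%, dotted line) and lower (16.1%, dashed line). LEA proteins and dehydrins reach 5 of 7 called higher, diterpenoid phytoalexin genes 4 of 9 called lower, and the cell wall list lies under both lines.

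Roots of the same genotypes gave fewer differences. There 2609 of 34355 probe sets (7.59%) were called between pho2 and gi, 3.94% higher and 3.66% lower in pho2. The pho2 minus gi difference itself differed between shoot and root, tested over all 18 arrays, for 5718 probe sets (16.6%), 3306 with a higher (9.62%) and 2412 with a lower (7.02%) difference in shoots. Values of this test are given as shoot less root. The spike controls were also set apart by organ, with bioB at 715 to 1299.6 on the shoot arrays of the mutants and 100 to 116 on their root arrays, and the part of this in the organ difference was not tested.

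LHY had the smallest p of the named genes in this test. In roots it read 3838, 4106 and 4019 in pho2 and 523, 521 and 461 in gi, a difference of 2.95, against 0.54 in shoots (shoot less root -2.41, SE 0.0911, limma adjusted p = 1.91e-10). Root LHY in WT, at 3377, 3439 and 3080, was close to pho2, whereas in shoots each mutant was below WT. PRR95, in contrast, was lower in pho2 in both organs, by -1.01 in shoots and -0.75 in roots, and these were not called apart (limma adjusted p = 0.185).

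The Pi genes Pht1;4 and SPX2 differed more between the mutants in roots than in shoots. Pht1;4 read 3540, 2885 and 2438 in pho2 roots and 777, 1023 and 1048 in gi roots, so that its sign was opposite to shoots (1.62 in roots, -0.57 in shoots, shoot less root -2.19, SE 0.227, limma adjusted p = 1.14e-05). SPX2 read 236, 93.2 and 122 in pho2 roots and 1719, 1359 and 1571 in gi roots (-3.32 in roots, -0.53 in shoots, shoot less root 2.79, SE 0.294, limma adjusted p = 1.31e-05). Of 5 PHT1 genes tested in roots 4 were called higher in pho2, against 0 of 5 in shoots, where 6.4% of named genes were called higher in roots.

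Several of the extreme shoot differences were close to 0 in roots. LEA19 read 192, 201 and 250 in pho2 roots and 860, 202 and 76.1 in gi roots (shoot less root 5.62, limma adjusted p = 0.000782), and Cht2 read 2533, 2652 and 4474 in pho2 roots and 2673, 3246 and 3081 in gi roots (3.84, limma adjusted p = 0.000289). TUB6 was at 4995, 5032 and 4235 in pho2 roots and 4906, 5274 and 4388 in gi roots (-2.0, limma adjusted p = 1.93e-06). GDH1, about equal in the roots of the mutants (-0.15), gave 1.76 (limma adjusted p = 2.34e-06), and VDAC1, a porin of the outer mitochondrial membrane, 1.34 (limma adjusted p = 2.86e-06). HOX1, a homeodomain-leucine zipper factor, and CIPK1, a kinase of calcium signalling, changed sign, with 0.70 and 0.62 in roots and -0.78 and -0.75 in shoots. BBD1 and GLT2 were lower in pho2 in both organs. BBD1 read 198, 139 and 169 in pho2 roots and 1113, 1587 and 1734 in gi roots, a difference of -3.01 against -2.22 in shoots. GLT2 differed by -2.25 in roots and -1.87 in shoots, which were not called apart (limma adjusted p = 0.658). It was dim in roots, at 0.916, 3.16 and 43.8 in pho2 and 94.7, 138 and 107 in gi. Its root value therefore rests on signals near the floor, and the missing call does not show equal differences.

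**Figure D5:**
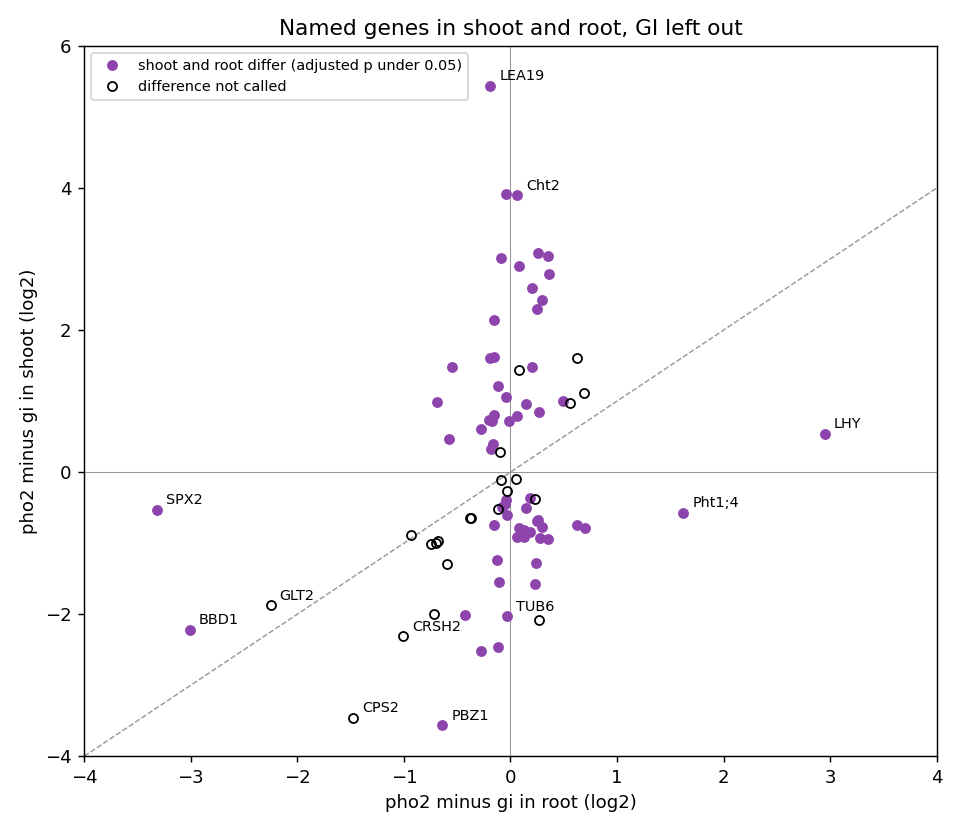
The pho2 minus gi log2 difference in shoots (vertical) against that in roots (horizontal) for 85 named genes with both values, GI left out, with a dashed line of equal differences. Filled points (63) differ between organs at a limma adjusted p under 0.05 and open points (22) do not, and most extreme shoot differences, such as LEA19 and Cht2, lie near 0 in roots, while SPX2, BBD1 and LHY lie far from 0 in roots.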

How the data were processed

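The deposited table holds intensity on a linear scale for each probe set on each array. The submitters' processing notes name MAS5, with version and settings not given in the sources used here. The trimmed mean of each column was 500, as MAS5 scaling gives. Detection calls were not used here. All columns differed in their values and each was used. The number of arrays limits the precision.

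Of 57381 probe sets, 123 controls were left out. Values were taken as log2(signal + 16), and the 9 shoot arrays were fitted with limma 3.58.1 in R 4.3.3 (lmFit, eBayes with an intensity trend) on the 34355 probe sets whose mean reached the 40th percentile. Tests were two-sided with Benjamini-Hochberg adjustment, called at 0.05. Each comparison with WT came from the same fit, roots from a fit of the 9 root arrays, and the organ difference from a fit of all 18. In simulated data with the spread of the shoot arrays, 100 of 34355 probe sets were changed by 1 and 100 by 2 on the log2 scale. Of these, 48% and 70% were called, and 0.00878% of the unchanged ones. The adjustment depends on the share of probe sets changed, which was far smaller there than the 19.1% called in the real data. These rates therefore do not carry over to the real comparison.

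Probe sets were named through the platform annotation and a RefSeq gene table. A single gene was given for 22436 probe sets and several for 95, and 2456 of 17905 genes carry a name. A gene is given by its brightest probe set, and others are stated where they disagree. Gene names were searched by patterns to fill the lists, less false matches, of which 7 names (tom1, tom2, DAD1, LIP1, AS2, rps14 and, in the gibberellin list, CYP701A8) were removed after their values had been seen. The members and lists were chosen with earlier results of these data known. Named are GI, the 12 highest and 12 lowest named genes with no overlap of arrays, up to 3 called members of each list by smallest p (or the 2 brightest where none is called) and the 6 named genes with the smallest p in the organ difference. Other members are named after their values were seen. Class III peroxidases had 2 tested members, PRX112 (0.28) and PRX74 (1.44), and 0 calls. No promoter or protein sequence was used here, and the planned count of promoter motifs was not made.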

Additional observations from a re-analysis of the deposited data

Results flagged for a closer look

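The pho2 minus gi difference of 72 of the 94 named genes differed between shoot and root at a limma adjusted p under 0.05, by an interaction term over all 18 arrays. This share says nothing of named genes at large, since most of the 94 were chosen for their shoot difference and 6 for this very test, and over all named genes tested 25.7% were called, as were 16.6% of all probe sets. Each value is shoot less root on the log2 scale, positive for 37 genes and negative for 35.

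For at least 9 of the 72 genes the value rests on signals near the floor, those dim in roots and GI. Shoot readings near the floor also enter some values listed further below. On the gi shoot arrays LEA19 read 9.55 to 45.3, STLP3 8.78 to 32.3 and JAMYB 7.72 to 79.9. On the pho2 shoot arrays VLN4 read 3.78 to 37.2. In roots, 8 genes were too dim to enter the root comparison, at 0.774 to 119 signal units on the mutant arrays, so most of their values restate the shoot difference. They were RAB21 (4.41), RAB16B (4.13), BURP16 (3.13), GBSS-I (1.01), MADS1 (-1.73), MTP4 (-1.92), CYP71Z6 (-2.30) and KS6 (-2.89). The values of RAB21 and RAB16B exceeded their shoot differences of 3.42 and 2.67. In gi roots RAB21 read 119, 2.06 and 3.15 and RAB16B 99.5, 16.6 and 23.2, with pho2 roots at 2.23, 2.08 and 2.21 and at 3.65, 2.41 and 3.47. GI (-1.08) was near the floor on the gi arrays of both organs, at 5.43 to 44.6 signal units in shoots and 1.36 to 2.19 in roots, and its value is mostly the difference of those readings.

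Positive values, the highest first, were found for LEA19 (5.62), STLP3 (3.96), Cht2 (3.84), JAMYB (3.11), CLPD1 (2.82), ELA3 (2.81), SPX2 (2.79), CAD6 (2.69), NAAT1 (2.43), JAZ11 (2.38) and PIP1;3 (2.29). They were lower but still positive for WRKY76 (2.12), HAK1 (2.05), Dhn1 (2.04), TPP9 (1.79), GDH1 (1.76), HSFC1B (1.68), VDAC1 (1.34), WRKY24 (1.28), RCCR1 (1.10), RPS10-1 (1.05) and PDIL1-1 (0.94). The lowest positive values were those of SAPK1 (0.94), HAK2 (0.89), CSLH1 (0.88), IAA6 (0.80), BBD1 (0.79), CRT1 (0.73), PDIL2-3 (0.73), SNAC2 (0.57), GT43J (0.55), HAK7 (0.52) and RPL5 (0.51). Negative values, the lowest first, were found for PBZ1 (-2.93), LHY (-2.41), 4CLL7 (-2.34), VLN4 (-2.24), Pht1;4 (-2.19), TUB6 (-2.0), ABA8OX2 (-1.80), NAS3 (-1.57), LOGL6 (-1.53), HOX1 (-1.48) and YSL9 (-1.44). They were closer to 0 for CIPK1 (-1.37), RR2 (-1.29), arf1 (-1.21), VIT1 (-1.11), RR24 (-1.07), Cht6 (-1.05), KRP4 (-1.02), ARF9 (-0.96), NIA1 (-0.95), CDKF-3 (-0.94) and COPT1 (-0.93). The negative values closest to 0 were those of Lsi1 (-0.87), JAZ1 (-0.66), MADS50 (-0.60), RPA14 (-0.57), PHR2 (-0.55), aoc (-0.41), H2B.6 (-0.40) and H2B.5 (-0.35). Members of the Pi lists lay on both sides, as SPX2 above 0 and Pht1;4 and PHR2 below it, and so did members of the ABA list, as SNAC2 and SAPK1 above 0 and ABA8OX2 below it.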

How the results depend on the processing

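The count of 6577 called probe sets was 4285 without an intensity trend in eBayes, and 4370 to 6744 when each shoot array was left out in turn, the lowest without pho2 replicate 1. Of the 4285 calls, 4084 were among the 6577. Under the other alternatives it was 5052 with the 6 pho2 and gi arrays alone to 8092 with array weights. Replicate numbers did not pair the mutants, since same-numbered arrays correlated at -0.0586, 0.0248 and -0.00835 in their deviations from the group means, and a replicate block gave 5892 calls. For the organ difference, 5718 calls became 4679 with the 12 mutant arrays alone to 6254 with a pseudocount of 64, 4486 to 6166 with single arrays left out and 5508 with the replicate block. Median centring moved the share of higher calls to 48.0% in place of 57.8% there. Scaling moved the median of all probe sets by at most 0.05. Over 1874 values of the 94 named genes, 1824 kept direction and side of the threshold, 50 kept direction and lost the call, and 0 reversed. All 50 fell on 13 genes. Without the trend PHR2 (limma adjusted p = 0.0548), Dhn1 (0.0531), RPL5 (0.0525) and rpl5 (0.0559) were not called, and SPX2 was not called with all 18 arrays (0.0766). A pseudocount of 64 gave 2.17 for BURP16, 1.65 for RAB16B and -1.51 for VLN4, and quantile normalization gave -0.46 for CIPK1, all still called. The median of the clock list was 0.07 in place of -0.18 and that of the heat shock list 0.10 in place of -0.02 after quantile normalization. The cause of these changes was not tested. The pseudocount of 16 compresses differences where a group reads near or under 16 signal units, as for GI, LEA19 and VLN4.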
